A study of Mus musculus with 24 samples.

Results

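The miR-29 family was followed through 24 nCounter lanes of a mouse mammary carcinoma model. Its members were taken as the probes whose identifiers are mmu-miR-29a, mmu-miR-29b and mmu-miR-29c, which are 3 of the 566 mouse miRNA probes of the assay. The nCounter assay counts fluorescent barcodes hybridized to each RNA, without amplification. The samples came from JygMC(A)-GFP/Luc cells, a mouse mammary carcinoma line carrying fluorescent and luciferase reporters, and from female Balb/C nude mice. Tumors arose after these cells were injected into the mammary fat pad. The labels do not say whether the normal tissues came from mice that received cells. The mice lack T cells, and their age is given in the methods only as a range of weeks.

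Laser capture had been used to collect 5 carcinoma areas and 7 EMT-like areas (spindle-shaped regions named for the epithelial to mesenchymal transition) of primary tumors (PT), 4 lung metastases, 2 samples of normal mammary gland (NMG) and 2 of normal lung parenchyma. The cells were also grown without a mouse, as 2 monolayer cultures and 2 cultures of 3D-spheres, of the third generation, on low-adherence plates. All malignant samples derived from this 1 cell line. Several carcinoma, EMT-like and metastasis samples shared an animal, and replicate 1 of each of these groups carried a label naming 3 animals. The labels call the samples biological replicates without saying how they were separated, so a p-value below measures the spread between these samples. The sum of mouse miRNA values, a measure of depth, lay between 111602 and 184501 in EMT-like areas and between 115259 and 164785 in carcinoma. It lay between 62583 and 115278 in lung metastasis. NMG reached 560247 and 525697, and normal lung 590022 and 2335745. The monolayer lanes reached 46507 and 26420 and the 3D-sphere lanes 38689 and 33419.

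A miRNA represses messenger RNAs that pair with its seed, a short stretch near its 5′ end, so miRNAs with the same seed are expected to share many targets. The miR-29 family is known for repressing collagens and other extracellular matrix genes in fibroblasts and for targeting the DNA methyltransferases Dnmt3a and Dnmt3b. In the mouse it is made from a pair of gene clusters, one holding Mir29a and Mir29b-1 and the other holding Mir29b-2 and Mir29c.

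The mature sequences are shown because the members are near copies of each other and because their measured levels nonetheless separated. They are the RefSeq entries of build GRCm38.p6, read 5′ to 3′, and the capitals mark the seed, bases 2 to 8.
miR-29a: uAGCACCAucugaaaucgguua
miR-29b: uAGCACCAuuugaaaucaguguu
miR-29c: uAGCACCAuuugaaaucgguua

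All 3 carried the seed AGCACCA, and of 437 panel miRNAs matched by name to a RefSeq mature sequence no other did. Counted from 1 at the 5′ end, miR-29a and miR-29c differed at a single position, C10U. The change from miR-29a to miR-29b was C10U, G18A, U21G and A22U over the 22 positions compared. Mature miR-29a lies on the minus strand at chr6:31062673-31062694. Mature miR-29c lies on the plus strand at chr1:195037600-195037621. Mature miR-29b is encoded at 2 places, chr6:31063025-31063047 on the minus strand and chr1:195037091-195037113 on the plus strand, so its probe cannot assign a count to either cluster. The annotated hairpins of Mir29a and Mir29b-1 are separated by 275 bases, and those of Mir29b-2 and Mir29c by 426 bases. Whether the probe of a member also counted another member was not tested. In 3D-spheres replicate 2 the deposited miR-29c value was 0.989% of that of miR-29a. This miR-29c value was under the detection limit of the lane, defined below, so the percentage has no exact size.

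The deposited values are barcode counts less the average negative control reading of each lane. They were scaled between lanes by the trimmed mean of M-values (TMM) to give the normalized values used here, and differences are on the scale of log2(normalized value + 1). The detection limit of a lane was set 2 SD over its average negative control, at 4 to 21.4 deposited units. miR-29a was detected in every lane, miR-29b and miR-29c in every tissue lane. In cultures miR-29b was detected in 0 of 4 lanes and miR-29c in 1 of 4.

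The normalized level of miR-29a was 7189 ± 1062 in normal lung (SD, n = 2), 3460.4 ± 182 in NMG (n = 2), 1844 ± 228 in 3D-spheres (n = 2), 1480.2 ± 385 in EMT-like areas (n = 7), 1357 ± 504 in carcinoma (n = 5), 984 ± 927 for the monolayer (n = 2) and 796 ± 189 for lung metastasis (n = 4). Ordered by the mean of the log2 values instead, the monolayer came last, and limma called no neighbouring pair of groups different after Benjamini-Hochberg adjustment. The order of miR-29b was normal lung, NMG, EMT-like, carcinoma and lung metastasis, followed by the cultures, which were under the limit in every lane and have no order between them. Its neighbours differed in limma between NMG and EMT-like areas (adjusted p = 0.0247) and between lung metastasis and 3D-spheres (adjusted p = 0.000128), and at no other step. The order of miR-29c was normal lung, NMG, lung metastasis, EMT-like and carcinoma, followed by the cultures, which were above the limit in 1 of 4 lanes and have no order between them. Its neighbours differed in limma between NMG and lung metastasis (adjusted p = 1.86e-06) and between carcinoma and monolayer (adjusted p = 0.0214), and at no other step. The 3 members together took 3.12% to 3.38% of the mouse miRNA sum in NMG, 3.30% to 4.34% in normal lung and less in tumors. Their share was 0.868% to 1.66% for carcinoma, 1.09% to 2.23% for EMT-like areas and 0.699% to 1.40% for lung metastasis. In cultures it was 2.46% to 2.56% for 3D-spheres and 0.670% to 2.36% for the monolayer.

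**Figure D1:**
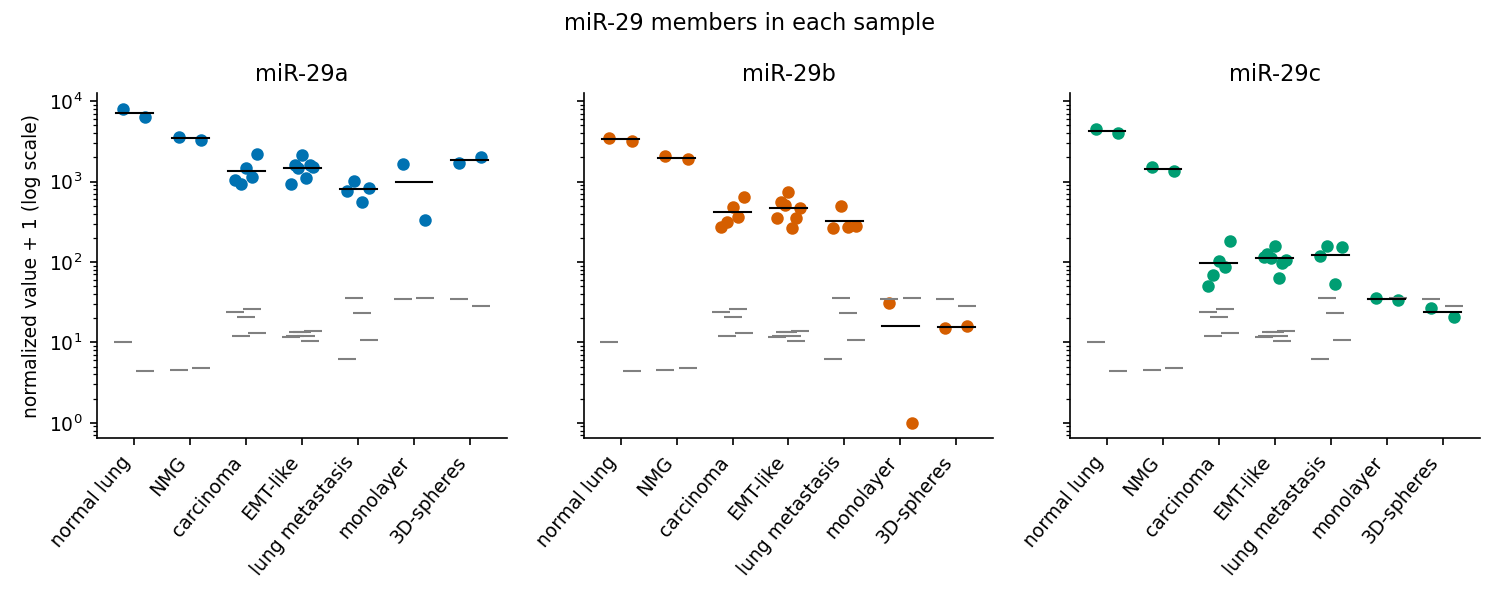
Normalized value + 1 of each miR-29 member (log axis) in the 24 lanes, by group; points are lanes, black lines group means and grey dashes the detection limit of each lane. Both normal tissues lie above all tumor lanes for each member, and the 4 culture lanes of miR-29b lie under their limits.

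The first comparison asked how tumor areas of either histology differ from normal mammary gland. All 3 members were lower in both kinds of tumor area than in NMG, with miR-29c showing the largest difference. In NMG the normalized miR-29c values were 1526 and 1368. In carcinoma they were 49.9, 67.3, 102, 86.2 and 181, and in EMT-like areas they ran from 61.6 over a median of 111 to 156. Every tumor area lay far below both glands. miR-29c fell by 4.02 on the log2 scale in carcinoma (SE 0.43, 16.2-fold, limma adjusted p = 3.23e-07) and changed by -3.75 in EMT-like areas (SE 0.41, 13.5-fold, limma adjusted p = 5.10e-07). Of the 583 probes tested, limma called 23.8% lower in carcinoma than in NMG and 20.4% lower in EMT-like areas, so a lower level in itself was common. The balance of calls moved with the scaling, from 32 higher and 139 lower for carcinoma with TMM to 58 and 79 with the 100 most abundant miRNAs and 5 and 289 without scaling, and for EMT-like areas from 26 and 119 to 74 and 72 and to 10 and 201. The median log2 difference over all probes was -0.68 for carcinoma and -0.30 for EMT-like areas. Both comparisons used the same 2 NMG samples.

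The other two members differed less from NMG. miR-29b stood at 2079 and 1889 in NMG, at 269.6, 312, 486, 365 and 649 in carcinoma, and between 261 and 745 with a median of 472 in EMT-like areas. No tumor area reached the lower gland, where 31.0% of all probes lay below NMG without overlap in carcinoma and 25.2% in EMT-like areas. miR-29b fell by 2.32 in carcinoma (SE 0.73, limma adjusted p = 0.0199) and changed by -2.17 in EMT-like areas (SE 0.70, limma adjusted p = 0.0247). miR-29a stood at 3589 and 3332 in NMG, at 1053, 921, 1485, 1148 and 2178 in carcinoma, and between 942 and 2132 with a median of 1499 in EMT-like areas. Here too the groups were apart. miR-29a fell by 1.42 in carcinoma (SE 0.44, limma adjusted p = 0.0176) and changed by -1.27 in EMT-like areas (SE 0.42, limma adjusted p = 0.0276).

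The miR-29c calls held under every alternative tried, while those of miR-29a and miR-29b did not. The main fit estimated the spread of each member over all 7 groups, so its SEs, intervals and adjusted p-values also carry the spread of the cultures. In the monolayer the log2 SD was 1.64 for miR-29a, 3.49 for the undetected miR-29b and 0.046 for miR-29c. In NMG it was 0.076, 0.098 and 0.11. Without NMG replicate 1, miR-29a differed by -1.37 in carcinoma (limma adjusted p = 0.129) and by -1.21 in EMT-like areas (0.184), and miR-29b by -2.25 (0.141) and -2.10 (0.173). Without NMG replicate 2, the miR-29a differences were -1.47 (limma adjusted p = 0.0980) and -1.32 (0.142), and those of miR-29b were -2.39 (0.113) and -2.24 (0.143). Scaling by the 100 most abundant miRNAs ended these calls too, with miR-29a at -0.51 for carcinoma and -0.08 for EMT-like areas. The miR-29c differences were called but smaller with this scaling. An exact permutation test cannot pass after adjustment here, since its smallest p was 0.0476 for carcinoma and 0.0278 for EMT-like areas (two-sided, adjusted over 24 tests 0.127 and 0.111 for each member).

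**Figure D2:**
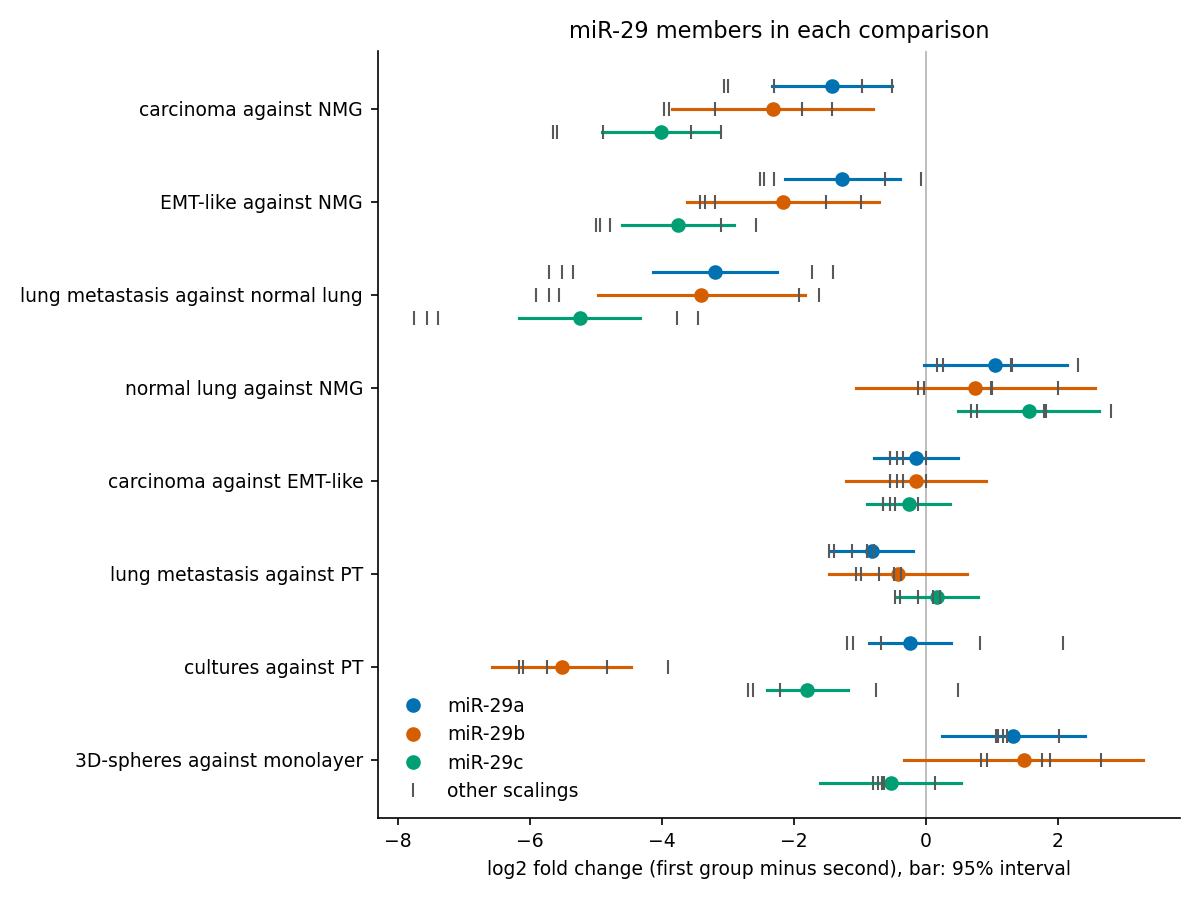
Log2 fold change of each member in 8 comparisons (points) with the limma 95% interval (bars); grey ticks show the same value under 5 other ways of scaling the lanes. The ticks shift the members of a comparison together, and miR-29c lies farthest left in the top 3 comparisons under each; culture values of miR-29b, and of miR-29c in 3 of 4 lanes, were under the detection limit, so those points have no exact size.

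A ratio between members within a lane does not depend on the scaling. The deposited miR-29c value was 42.5% and 41.1% of that of miR-29a in NMG, and 6.96% ± 1.34 of it in carcinoma (SD, n = 5) and 7.62% ± 2.16 among the EMT-like areas (SD, n = 7). The highest tumor area, EMT-like replicate 1, reached 12.2%. On the log2 scale the ratio differed from NMG by -2.59 in carcinoma (exact permutation p = 0.0476, adjusted 0.0952) and differed by -2.49 in EMT-like areas (exact p = 0.0278, adjusted 0.0741), each the smallest p the design allows. The miR-29b value was 57.9% and 56.7% of miR-29a in NMG, 30.8% ± 3.24 of it for carcinoma (SD, n = 5) and 31.2% ± 5.97 for the EMT-like areas (SD, n = 7). This ratio differed from NMG by -0.90 in both kinds of area, and every tumor area lay below both glands (exact permutation p = 0.0476 and 0.0278, adjusted 0.0952 and 0.0741).

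**Figure D3:**
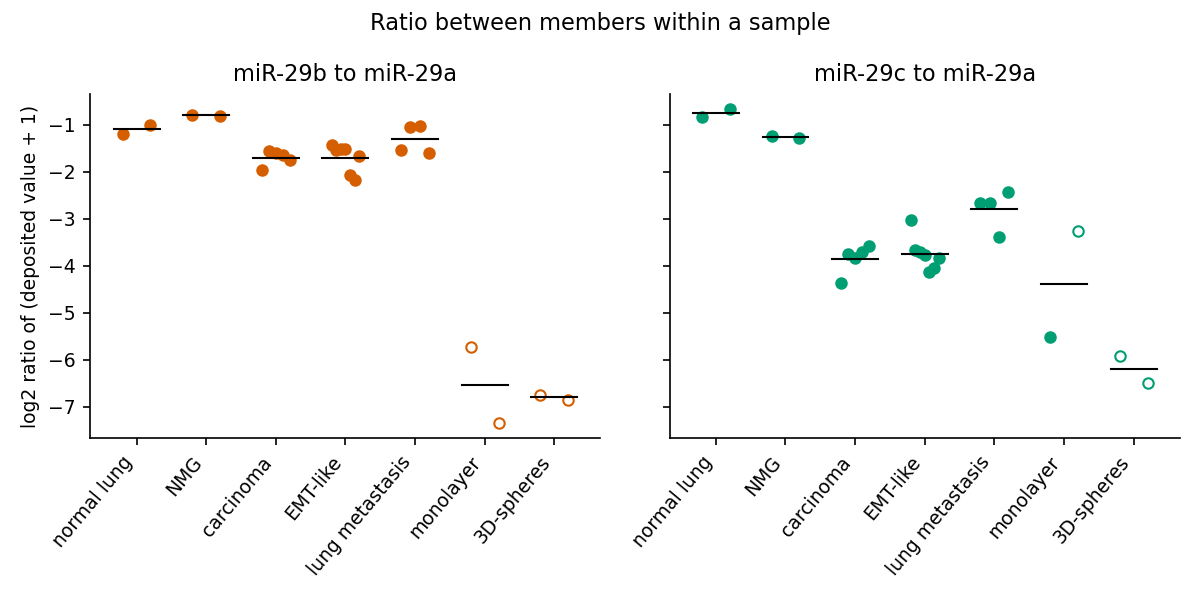
Log2 ratio of the deposited values + 1 of miR-29b to miR-29a and of miR-29c to miR-29a within each lane, by group; black lines are group means and open points lanes where the numerator was under its detection limit. The miR-29c ratio steps from the normal tissues to lung metastasis and then to the primary tumor areas.

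The second setting was the lung, where metastases were compared with normal parenchyma. All 3 members were lower in the metastases, and again miR-29c differed most. Normal lung held 4471 and 4043 normalized units of miR-29c, and the 4 metastases held 119, 158, 52.6 and 154. The metastases sat far below both lungs, as did 37.9% of all probes without overlap. miR-29c fell by 5.24 (SE 0.44, 37.9-fold, limma adjusted p = 2.81e-09), in a comparison where limma called 42.2% of all probes lower and the median probe differed by -0.90. These calls, 41 higher and 246 lower, became 95 and 128 with the 100 most abundant miRNAs and 8 and 377 without scaling. miR-29a was 7941 and 6438 in normal lung and 764, 1019, 562 and 840.3 in metastasis, and fell by 3.20 (SE 0.45, limma adjusted p = 5.24e-06). miR-29b was 3457 and 3213 in normal lung and 263, 490.4, 275 and 275 in metastasis, and fell by 3.40 (SE 0.75, limma adjusted p = 0.000954). The calls of miR-29a and miR-29c held under each alternative, whereas that of miR-29b was lost with scaling by the 100 most abundant miRNAs (-1.61, limma adjusted p = 0.210) and by the miRNA total (-1.92, 0.0868). A scaling shifts the members of a comparison about alike, so the miR-29c difference was smaller with these scalings too. The exact permutation p was 0.0667 for each member, the smallest that 4 against 2 samples allow.

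Between the normal tissues, each member was higher in both lung samples than in both NMG samples, as were 32.4% of all probes, and limma called 10.5% of probes higher in lung (61 higher and 7 lower, against 32 and 23 with scaling by the miRNA total). The differences were 1.05 for miR-29a (SE 0.52, limma adjusted p = 0.211), 0.75 for miR-29b (SE 0.87, limma adjusted p = 0.663) and 1.56 for miR-29c (SE 0.51, limma adjusted p = 0.0506), so none passed. With the number shared by a lung and a gland sample as a fixed replicate block, the miR-29c difference passed (limma adjusted p = 0.0346). The labels do not say that these numbers are animals. The miR-29c value was 56.3% and 62.8% of that of miR-29a in lung against 42.5% and 41.1% in NMG.

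Within primary tumors, the levels of the family did not separate carcinoma from EMT-like areas. The log2 difference was -0.15 for miR-29a (95% interval -0.79 to 0.48, limma adjusted p = 0.924), -0.15 for miR-29b (-1.22 to 0.91, limma adjusted p = 1) and -0.26 for miR-29c (-0.89 to 0.36, limma adjusted p = 0.748). The interval of miR-29b was the widest of the 3, in a fit that pools the spread of all 7 groups, cultures included. Among carcinoma samples the log2 SD was 0.49 for miR-29a, 0.51 for miR-29b and 0.69 for miR-29c. Among EMT-like samples it was 0.39, 0.50 and 0.41. For miR-29b it was 3.49 in the monolayer, where this member was undetected. The width therefore does not describe the tumor areas alone. Limma called 0.172% of all probes lower in carcinoma and none higher, with 81 of 583 at an unadjusted p under 0.05. The animals fall into a series with lettered labels and a series with numbers alone, and miR-29c differed by -0.76 within the lettered series (3 against 2 samples) and by 0.30 within the numbered one (2 against 5). The difference between series was not called (limma adjusted p = 0.962), and the exact permutation p was 0.200 within the lettered series and 0.571 within the numbered one. The deposited miR-29c value relative to that of miR-29a was lower in carcinoma in the first series (log2 difference -0.64, exact permutation p = 0.1) and higher in the second (0.26, exact permutation p = 0.0952), without overlap in either, and this contrast between series was not tested. In the 4 animal labels with both kinds of area, miR-29b was lower in carcinoma in 4 of 4, by a mean of -0.47 (range -0.82 to -0.20). miR-29a was higher in carcinoma in 2 of 4 and miR-29c in 1 of 4.

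The members parted between primary tumors and lung metastases. The 4 metastases held 764, 1019, 562 and 840.3 normalized units of miR-29a, and the 12 primary areas ran from 921 over a median of 1477 to 2178. Of the metastases, 3 lay below every primary area and replicate 2 lay inside their range. miR-29a was thus not among the 1.54% of all probes that had no overlap with the metastases lower. The share of probes with 3 of 4 metastases below every primary area was not counted. The difference of -0.82 passed the exact permutation test (two-sided p = 0.00385, adjusted over 24 tests 0.0308) and not limma over all probes (SE 0.30, adjusted p = 0.144), which called 2.57% of probes lower (3 higher and 15 lower, against 6 and 15 with the miRNA total and 1 and 40 without scaling). Limma did call it when the lanes were left unscaled (-1.39, adjusted p = 0.0172) or were scaled on the 100 most abundant miRNAs (-0.89, adjusted p = 0.0217). Within the numbered series the 3 metastases lay below all 7 primary areas by -0.98 (exact permutation p = 0.00833, the smallest possible), and the single lettered metastasis lay below all 5 by -0.61. Within an animal label, miR-29a was lower in the metastasis in 4 of 4, by -0.38 to -1.52.

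miR-29c did not show that difference. Its values of 119, 158, 52.6 and 154 in metastasis fell within the primary range of 49.9 to 181, with a difference of 0.17 (95% interval -0.44 to 0.79, limma adjusted p = 0.961). This difference turned negative without scaling (-0.39) and with scaling by the positive controls (-0.47) or the mRNA controls (-0.12), and with a higher background subtracted (-0.35). miR-29b lay between the others at -0.42 (95% interval -1.47 to 0.63, limma adjusted p = 0.853). It was lower in the metastasis in 4 of 4 animal labels and miR-29c in 2 of 4.

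The within-lane ratio measured this parting directly. miR-29c amounted to 15.5%, 15.5%, 9.36% and 18.4% of miR-29a in the 4 metastases, against 7.34% ± 1.82 in the 12 primary areas (SD), which reached from 4.74% to 12.2%. Metastasis replicate 3 was the one inside the primary range. The log2 ratio was higher by 0.998 in metastasis (exact permutation p = 0.0011, adjusted over 24 tests 0.00879), and leaving out any 1 sample kept it between 0.88 and 1.20 with an adjusted p of at most 0.0352. It was higher by 0.999 within the numbered series (exact p = 0.00833, the smallest possible) and by 1.06 for the lettered metastasis, without overlap in either. Within an animal label it was higher in 4 of 4, by 0.66 to 1.41. The ratio of miR-29b to miR-29a was higher by 0.40 in metastasis and did not pass (exact p = 0.0203, adjusted 0.0741). It was higher by 0.53 within the numbered series (exact permutation p = 0.0333, unadjusted) and by 0.09 for the lettered metastasis, with overlap in both. Within an animal label this ratio too was higher in 4 of 4, by 0.06 to 1.15.

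**Figure D4:**
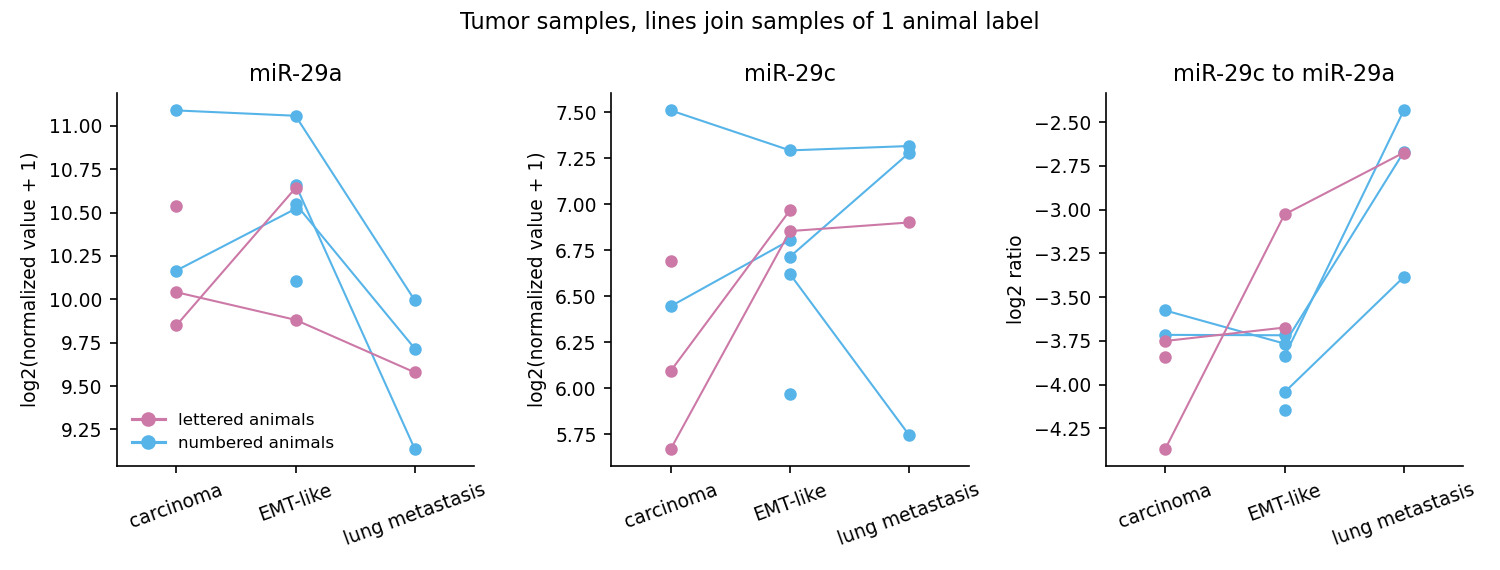
miR-29a, miR-29c (log2 of normalized value + 1) and their log2 ratio within a lane in carcinoma, EMT-like and lung metastasis samples; points are lanes and lines join samples of 1 animal label, colored by series. In the 4 labels with a metastasis miR-29a is lower there than the mean of the primary areas and the ratio is higher, while miR-29c goes both ways.

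Normal lung had the highest ratio of miR-29c to miR-29a of all groups, so the markers of other cell types are given beside this result. The endothelial marker pair, miR-126-3p and miR-126-5p, summed to 67772 and 70141 normalized units in normal lung with miR-126-3p the more abundant. Its sum was 3114, 2589.6, 819 and 2445 in the metastases and 1067 to 2626 in the primary areas. Limma called 0 of the 2 different between metastasis and PT (median difference 0.08). The erythroid markers miR-144, miR-451 and miR-486 summed to 348, 424, 533 and 403 in the metastases, above all primary areas (83.7 to 297), with the most abundant being miR-451, which alone of the 3 was called higher, in a comparison with 0.515% of all probes called higher. In normal lung they summed to 49121 and 55994. Of the 5 immune cell markers 1 was called higher, the lymphocyte miRNA miR-150 (2.65, limma adjusted p = 5.00e-05), at 256 ± 105 in metastasis (SD, n = 4), 40.2 ± 14.6 in PT (n = 12) and 1187 ± 65.7 in normal lung (n = 2). The immune sum was 870.4, 1634, 1029 and 974 in the metastases, 572 to 1243 in the primary areas and 764 to 1130 in the cultures, which hold the cell line alone. Its most abundant member in all of these was miR-155, at 505 ± 179 in metastasis (SD, n = 4), 367 ± 42.8 in PT (n = 12), 827 ± 154 in cultures (n = 4) and 117 ± 69.95 in normal lung (n = 2). Of the 5 mesenchymal and smooth muscle markers 2 were called lower, miR-199a-3p (-1.44, limma adjusted p = 0.00711) and miR-199a-5p (-1.39, 0.00538), where 2.57% of all probes were. Their sum was 2082, 1273, 918 and 1490 in the metastases, with miR-145 the most abundant, and 1646 to 4173 in the primary areas. Of the 7 epithelial markers 1 was called higher, miR-203 (2.62, limma adjusted p = 0.0167), and none of the muscle and adipose-linked markers was called. Metastasis replicate 3 had the lowest endothelial and mesenchymal sums, the highest erythroid sum and the lowest miR-29c ratio of the 4. The part of these cells in the ratio was not tested.

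The last setting was culture, where miR-29b parted from miR-29a. The question was how the cell line, grown alone, compares with the tumors it forms. miR-29a stood at 1639.8 and 328 in the monolayer and at 1683 and 2005 in the 3D-spheres, around the primary median of 1477. Only monolayer replicate 2 lay outside the primary range. miR-29b stood at 29.5 and 0 in the monolayer and at 13.9 and 14.9 in the 3D-spheres, all under the detection limit, against 261 to 745 in the 12 primary areas. Against those limits miR-29b was at least 12.7-fold lower in cultures with TMM scaling. The bound was 2.60-fold with scaling by the 100 most abundant miRNAs, 6.17-fold with the miRNA total and 17.0-fold to 23.9-fold with the others. Limma called miR-29b lower with an adjusted p of 1.01e-08 (exact permutation p = 0.000549, the smallest possible, adjusted over 24 tests 0.00659). miR-29c stood at 34.2 and 32.6 in the monolayer and at 26.1 and 19.8 in the 3D-spheres, below every primary area. Only the monolayer replicate 1 value was above its detection limit. With the other 3 lanes set to their limits miR-29c was at least 2.98-fold lower in cultures with TMM scaling and 1.44-fold with the miRNA total, with no bound from the 100 most abundant miRNAs, and limma called the measured values lower with an adjusted p of 4.36e-05. In this comparison limma called 22% of all probes lower, and 11.8% lay below all primary areas. The balance of calls turned with the scaling, from 49 higher and 128 lower with TMM to 220 and 62 with the 100 most abundant miRNAs, 4 and 156 without scaling and 141 and 93 with the miRNA total.

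The miR-29a difference of -0.24 between cultures and PT was not called (95% interval -0.87 to 0.38, limma adjusted p = 0.648), and its direction hung on the scaling. It was -1.19 without scaling (limma adjusted p = 0.0115), 0.82 with the miRNA total (0.0135) and 2.08 with the 100 most abundant miRNAs (1.49e-07), and it was 0.36 without monolayer replicate 2. The miR-29c call in its level ended with scaling by the 100 most abundant miRNAs, where the difference was 0.49 (limma adjusted p = 0.135), while the miR-29b call held under each alternative.

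Within a lane, miR-29b was between 0% and 1.80% of miR-29a in the 4 cultures, against 31.0% ± 4.83 in the 12 primary areas (SD). With miR-29b set to its detection limit in those lanes, the ratio was at least 10.5-fold lower than in PT (exact permutation p = 0.000549, the smallest possible, adjusted 0.00659, with measured values and at the limit). miR-29c was 2.08% and 9.94% of miR-29a in the monolayer and 1.55% and 0.989% in the 3D-spheres, with the numerator under its limit in 3 of the 4 lanes. With these set to their limits the ratio was at least 2.45-fold lower than in PT (exact permutation p = 0.00659, adjusted 0.0396, with measured values and at the limit). Monolayer replicate 2, with its low miR-29a, was the lane inside the primary range. The call was lost without monolayer replicate 1, 3D-spheres replicate 1 or 3D-spheres replicate 2 (adjusted p = 0.0741 for each), without EMT-like replicate 1 (0.0527) and with a pseudocount of 10 (0.0607).

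Between the 2 forms of culture no member passed. miR-29a was 1.32 higher in 3D-spheres (95% interval 0.24 to 2.40, limma adjusted p = 0.190), and miR-29c, above its limit in 1 of the 4 lanes, had a limma adjusted p of 0.894. miR-29b (limma adjusted p = 0.531) was under its limit in all 4, so its levels have no order there. Both 3D-sphere lanes lay above both monolayer lanes for miR-29a, as for 8.58% of all probes. Limma called 2.92% of all probes higher and 1.72% lower here (17 and 10, against 16 and 25 with the miRNA total and 9 and 0 with the mRNA controls). Without monolayer replicate 1, miR-29a differed by 2.48 (limma adjusted p = 0.00108), and without monolayer replicate 2 by 0.16.

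Other miRNAs with similar known targets were listed with earlier results of these data known. Of 10 miRNAs known to act in fibroblasts or on matrix genes, 9 were measured. In carcinoma 7 of the 9 fell against NMG, with a median difference of -2.50 beside -0.68 over all probes, and in EMT-like areas 6 of the 9 fell, with a median of -2.37 beside -0.30. Of these miR-133a was undetected in carcinoma, and with values under the limit set to it the carcinoma median was -1.94. Over all probes treated alike, undetected ones included, that median was 1.46. miR-143, a smooth muscle and stromal miRNA, fell by 3.96 in carcinoma (limma adjusted p = 0.00380), and miR-145 from the same transcript changed by -2.50 (1.86e-05). miR-21, a miRNA raised in many tumors and in fibrosis, differed by 0.06 in carcinoma (limma adjusted p = 1). Against normal lung 7 of the 9 fell in metastasis (median -3.22 beside -0.90), and 2 of the 9, the miR-199a pair named above, fell against PT. In cultures limma called 7 of the 9 lower than in PT, of which 3 were undetected in all 4 lanes and miR-143 in 3 of 4. With values under the limit set to it, the median of the 9 was -1.46, beside 1.18 over all probes treated alike. Beside these counts, limma called lower than in NMG 23.8% of all probes for carcinoma and 20.4% for EMT-like areas, and lower 42.2% in metastasis against normal lung, 2.57% in metastasis against PT and 22% in cultures.

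Of 5 miRNAs known to target DNA methyltransferase genes, 4 fell in carcinoma against NMG (median -1.85) and 4 in EMT-like areas (median -2.26), beside medians of -0.68 and -0.30 over all probes. The same number fell in metastasis against normal lung (median -2.49 beside -0.90), none was called between metastasis and PT, and limma called all 5 lower in cultures than in PT. Each of the 5 was above its limit in at most 1 of 4 culture lanes, and the value of miR-101a cannot be read, since only 5 of 12 PT lanes detected it. With values under the limit set to it, the median of the 5 was -1.46, beside 1.18 over all probes treated alike. The shares of all probes called lower were again 23.8%, 20.4%, 42.2% and 22% in these comparisons. miR-148b fell by 1.75 in carcinoma against NMG (limma adjusted p = 0.0212) and miR-101a, above its limit in 1 of 5 carcinoma lanes, was at least 5.10-fold lower (0.00228), whereas miR-148a differed by -1.08 (0.485). miR-143 stands in both lists. All 5 mesenchymal and smooth muscle markers (miR-199a-3p, miR-199a-5p, miR-214, miR-143 and miR-145) also stand in the fibroblast and matrix list. The counts given for these lists therefore share probes.

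Many markers of cells that captured gland or lung tissue can hold beside epithelium moved with the family. In these comparisons limma called 23.8% (carcinoma) and 20.4% (EMT-like) of all probes lower than in NMG. It called 42.2% lower in metastasis than in normal lung. The endothelial sum was 17649 and 10971 in NMG against 1067 to 1894 in carcinoma and 1314 to 2626 in EMT-like areas, and 2 of 2 markers fell against NMG and against normal lung. Of the mesenchymal and smooth muscle markers 4 of 5 fell in both kinds of tumor area against NMG and in metastasis against normal lung, with mean sums of 15700.3 in NMG, 16481 in normal lung, 2276 for carcinoma, 2602 for EMT-like areas and 1441 for metastasis. All 3 erythroid markers fell in the same comparisons, from a mean sum of 8314 in NMG to 155 in carcinoma and 177 in EMT-like areas. Of the adipose-linked miRNAs 3 of 4 fell against NMG, and of the 7 epithelial markers 1 in carcinoma and 4 in EMT-like areas. Of the muscle markers limma called 3 of 5 lower in carcinoma and 2 of 5 in EMT-like areas, all undetected in those areas, with sums of 1032 in NMG replicate 1 and 47.5 in replicate 2 and with miR-208a above its limit in 1 of the 2 glands. Of the 5 immune cell markers 3 fell and 2 rose in carcinoma, and 3 fell and 1 rose in EMT-like areas, where 5.49% and 4.46% of all probes were called higher. Those that rose were miR-155 in both and miR-142-5p in carcinoma, and both were detected in 4 of 4 culture lanes, at 827 ± 154 and 77.1 ± 8.17 normalized units (SD, n = 4), beside 118 ± 14.8 and 20.6 ± 2.90 in NMG (n = 2). Against normal lung, 3 of the 5 immune cell markers fell and 2 rose in metastasis, where 41 of 583 probes were called higher. In captured areas of many cells, fewer cells of a type and less of a miRNA per cell cannot be told apart. The part of these cells in the miR-29 differences was not tested. In the 4 culture lanes both endothelial markers were at 0 and no erythroid marker was above its limit, whereas the smooth muscle marker miR-145 was detected in 4 of 4, at 648 ± 417 (SD, n = 4).

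Levels of the members themselves ran together to different degrees. Pearson's r over the 24 lanes was 0.62 between miR-29a and miR-29b, 0.76 between miR-29a and miR-29c and 0.77 between miR-29b and miR-29c. Over the 16 tumor lanes it was 0.83, 0.49 and 0.66. These lanes share scaling, animals and group differences, and the values are descriptions.

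The 5 miRNAs whose log2 levels followed the mean of the family most closely, out of 193 detected in at least 12 lanes, were miR-26b (r = 0.964 over 24 lanes), miR-130a (0.949), miR-151-5p (0.943), miR-322 (0.940) and miR-451 (0.929). Over the 16 tumor lanes the values were 0.291 for miR-26b, 0.580 for miR-130a, 0.475 for miR-151-5p, 0.815 for miR-322 and 0.0114 for miR-451, an erythroid miRNA. miR-322 was thus the one whose likeness was kept most within tumors. Its normalized level was 1105 ± 65.7 in NMG (SD, n = 2), 1031 ± 34.7 in normal lung (n = 2), 104 ± 43.4 in carcinoma (n = 5), 126 ± 32.2 in EMT-like areas (n = 7) and 79.1 ± 19.2 in metastasis (n = 4).

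**Figure D5:**
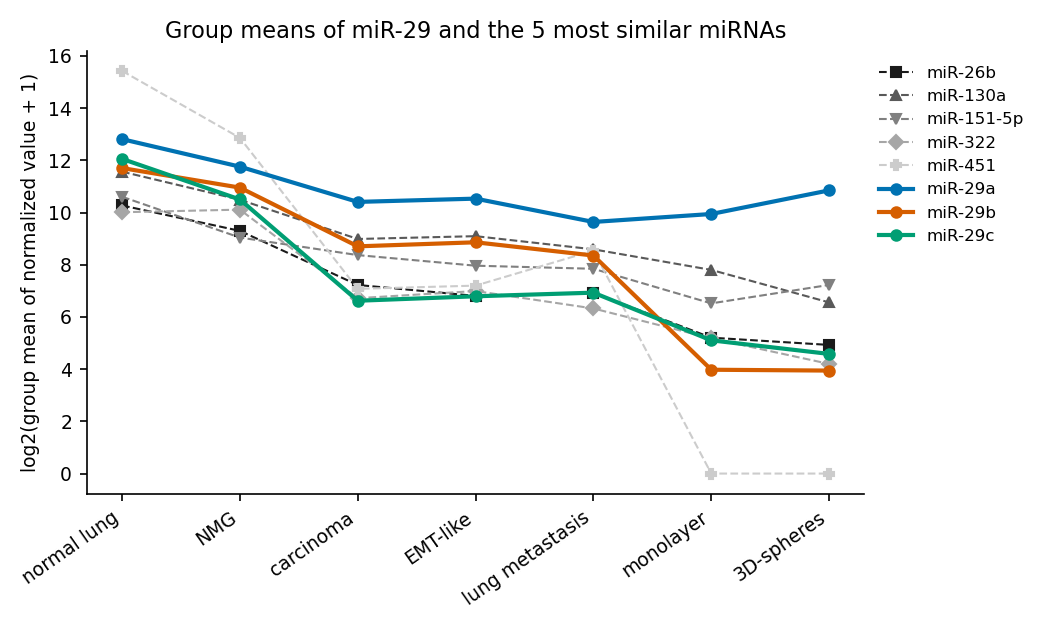
Log2 of the group mean of normalized value + 1 for the miR-29 members (colored, solid) and the 5 miRNAs with the highest correlation with their mean (grey, dashed) over the 7 groups. All lines drop from the normal tissues to the tumors, and in cultures miR-29a stays near its tumor level while miR-451 is at 0.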

How the data were processed

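The members of the miR-29 family and all miRNA lists were chosen with earlier results of these data known. The text names the 3 members, the lists given and the 5 miRNAs with the highest Pearson correlation with the mean of the members over 24 lanes. The authors deposited 1 table of scores, barcode counts minus the mean of 6 negative controls of the lane, with no scaling between lanes and a lowest value of -20. The submitters' processing notes name Partek, and further processing is not given in the sources used here. A count test was planned for raw counts only, so limma was used. Values floored at 0 were scaled by TMM over 566 mouse and 33 viral miRNAs (trims of 30% and 5%, reference lane carcinoma replicate 2), and log2(value + 1) was fitted for all 24 samples in 7 groups with limma 3.58.1 in R 4.3.3 (lmFit, eBayes with trend), with Benjamini-Hochberg adjustment over 583 probes above 0 in at least 1 sample at a threshold of 0.05. Single members and within-lane ratios were tested by exact permutation, two-sided, in Python 3.11.15 with numpy 2.4.6. Positive control A read 7950 to 11435, and lane factors ran from 0.403 to 5.63, so low values of shallow lanes are imprecise. Replicates of a group held equal values for at most 9.09% of probes. Samples of 1 animal label, as the labels give it, were compared by the correlation of their deviations from the group means over 183 probes, with a median of 0.15 (range -0.30 to 0.42, 10 pairs). Procedures were tested on simulated data. Alternatives were other scalings, filters, a higher background (2 SD of the lane controls subtracted in addition, values floored at 1), a pseudocount of 10, blocks and leaving out each sample. Setting values under the detection limit to it was added after seeing the data.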

Additional observations from a re-analysis of the deposited data

Results flagged for a closer look

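Groups of 4 to 10 samples were searched for a sample standing apart, by its gap to the nearest other sample relative to the range of the group. Of 18 sets of values searched, 2 held such a sample, and chance gives about 1 in 20. The normalized miR-29b value of lung metastasis replicate 2 was 490.4, beside 263 to 275 in the other 3 metastases. The log2 ratio of miR-29c to miR-29a in EMT-like replicate 1 was -3.03, and this sample carries a label naming 3 animals.

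The difference of tumor from normal tissue was compared between lung (metastasis minus normal lung) and mammary gland (primary tumor minus NMG). For miR-29a it was larger in the lung by -1.87 (SE 0.60, limma adjusted p = 0.0462), where 11.5% of all probes were called. For miR-29b the value was -1.17 (limma adjusted p = 0.580) and for miR-29c -1.38 (0.146). The miR-29a call depended on the scaling. Its value was -3.41 with the mRNA controls (limma adjusted p = 0.00625), -2.77 with the positive controls (0.00892) and -2.67 without scaling (0.0116), against -0.96 with scaling by the miRNA total (limma adjusted p = 0.291) and -1.15 with the 100 most abundant miRNAs (0.177), and leaving out 1 sample gave -2.02 to -1.71 with adjusted p from 0.00485 to 0.161. The call was lost on leaving out any 1 of 16 samples, among them each of the 4 normal tissue samples, and without the samples that name 3 animals (-1.95, 0.0630). The miR-29c value passed with no scaling (-2.18, limma adjusted p = 0.0273), the mRNA controls (-2.92, 0.0261) and the positive controls (-2.28, 0.0173).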

How the results depend on the processing

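Values are log2 differences. Every call of miR-29c against NMG and normal lung, of miR-29a against normal lung and of miR-29b in cultures kept its direction and its side of the threshold in all alternatives run. When lanes were scaled on the 100 most abundant miRNAs, and on the miRNA total, calls were lost for carcinoma against NMG (miR-29a -0.51 and -0.97, miR-29b -1.42 and -1.87), EMT-like against NMG (miR-29a -0.079 and -0.62, miR-29b -0.98 and -1.52) and metastasis against normal lung (miR-29b -1.61 and -1.92), and directions turned for lung against NMG (miR-29b -0.037 and -0.12) and cultures against PT (miR-29a 2.08 and 0.82, and miR-29c 0.49 with the former). These scalings moved the median of all probes in carcinoma against NMG from -0.68 to -0.11 and -0.32, and no scaling moved it to -1.83.

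Without the samples of 3 animals, calls were lost for miR-29b in carcinoma (-2.18) and for miR-29a and miR-29b in EMT-like areas (-1.17 and -2.11) against NMG. For metastasis against PT, calls appeared for miR-29a with no scaling (-1.39), the 100 most abundant miRNAs (-0.89), the positive controls (-1.46) and the higher background (-1.32), and for miR-29b with the higher background (-0.92), while miR-29c turned to -0.39, -0.47 and -0.35 without scaling, with the positive controls and with the higher background and to -0.12 with the mRNA controls. For lung against NMG, the mRNA controls gave calls of miR-29a (2.3) and miR-29c (2.80), and miR-29c was also called without scaling (1.79), with the positive controls (1.81), a pseudocount of 10 (1.55), only the groups compared (1.56) and the fixed replicate block (1.56). No other call changed with the replicate block. Normal lung and NMG samples of the same number had deviations correlated at -0.24, and crossing the numbers, an alternative chosen after seeing the data, gave 56 probes called, beside 62 with the numbers as labelled. Cultures against PT gave calls of miR-29a without scaling (-1.19), with the positive controls (-1.11) and with the higher background (-1.05). In 3D-spheres against monolayer, where miR-29b was under its detection limit in every lane, miR-29b turned to -0.029 with the higher background and miR-29c to 0.14 with the mRNA controls. The near-zero log2 ratio of miR-29b to miR-29a in carcinoma against EMT-like areas turned to 0.0072 with a pseudocount of 10, and that of miR-29b to miR-29c between cultures became 0 with the higher background.

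Leaving out 1 sample gave, for carcinoma against NMG, -1.61 to -1.30 for miR-29a and -2.50 to -2.18 for miR-29b, and for EMT-like against NMG -1.36 to -1.17 and -2.29 to -2.04. It gave 0.16 to 2.48 for miR-29a and, from values under the detection limit that carry no order, -0.99 to 3.94 for miR-29b in 3D-spheres against monolayer, and -0.51 to 0.36 for miR-29a in cultures against PT. For the log2 ratios it gave -0.081 to 0.063 (miR-29b to miR-29a) and -0.18 to 0.022 (miR-29c to miR-29a) in carcinoma against EMT-like areas, and -1.08 to 0.54 (miR-29b to miR-29a) and -0.39 to 3.49 (miR-29b to miR-29c) in 3D-spheres against monolayer, the latter pair again without a detected numerator. The cause of these changes was not tested. A group left with 1 sample was assumed to vary like the others. The number of probes called ranged over all alternatives from 0 to 19 for carcinoma against EMT-like areas (1 as reported), 102 to 327 for carcinoma (171) and 98 to 340 for EMT-like areas (145) against NMG, 10 to 44 for metastasis against PT (18), 151 to 389 for metastasis against normal lung (287), 30 to 160 for lung against NMG (68), 0 to 49 for 3D-spheres against monolayer (27) and 135 to 282 for cultures against PT (177). Values near the detection limit, as for miR-29b and miR-29c in cultures, carry little precision.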
